A study of Mus musculus with 9 samples.

Results

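Long exonic circular RNAs (circRNAs) are described here as they were recovered with the RNA-binding protein HuD from the mouse striatum. A circRNA was taken as long when its back-splice sites lay 30 kb or more apart on the genome, and as exonic when the authors' annotation classed it so. Of 737 circRNAs that the study listed as higher with HuD than with a control, 644 were exonic, and 141 of these spanned 30 kb or more; the other 503 exonic circRNAs served as the comparison. All members were selected on the measured difference between HuD RIP and at least 1 control in these same arrays, so their values in those comparisons, and the counts of them called there, are a description and support nothing. The 9 samples formed 3 groups of 3 precipitations from adult striatum. HuD RIP used tissue of HuD-OE mice, which carry myc-tagged HuD under the Camk2a promoter on a C57BL/6J background, and an anti-myc tag antibody (9B11). WT RIP used the same antibody on wild-type tissue, which has no tagged protein. IgG RIP used HuD-OE tissue with non-immune IgG according to the methods of the study, although its labels name the anti-myc antibody. The study describes tissue of 3 mice combined for each precipitation and 3 separate assays. Its wording does not settle whether each assay had its own pool. The spread between samples is therefore that between assays, and may or may not include that between pools.

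HuD (ELAVL4) is a neuronal member of the ELAV-like family, which binds A/U-rich and U-rich stretches of RNA and is known for stabilizing mRNAs during neuronal differentiation and plasticity. A circRNA forms when the spliceosome joins a downstream splice donor to an upstream acceptor, and the resulting ring resists exonucleases such as RNase R, which digests linear RNA. Introns between the joined sites are usually spliced out of an exonic circRNA, so the genomic span of a circle is mostly intron and says little of the length of the ring. Many neuronal genes that make adhesion, synaptic and signalling proteins are very long and are known as frequent hosts of circRNAs.

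The arrays differed in brightness before scaling, and this difference ran with the groups. The 75th percentile, taken over the 2594 probes that all 9 arrays detected well above background, lay between 5.999 and 7.13 in log2 on the HuD RIP arrays, between 5.39 and 6.05 on the WT RIP arrays and between 4.97 and 5.29 on the IgG RIP arrays. The share of all probes well above background ranged from 43.7% to 73.9%, from 25.4% to 44.6% and from 21.7% to 26.3%, respectively. Values below are log2 processed signal minus that percentile of the same array (scaled log2 signal). On this scale the median of the 6871 tested probes still differed, by 0.35 in log2 between HuD RIP and WT RIP and by 0.52 between HuD RIP and IgG RIP, with HuD RIP the higher, and other scalings moved these medians to between -0.36 and 1.13 and between -0.29 and 1.93. On WT RIP replicates 2 and 3 a common lowest value was shared by 6041 and 4994 probes, among them 52 and 23 of the long circRNAs, so values there of -5.37 and -5.64 have no order. Markers of cell types were looked up only among the 737 listed circRNAs, which were listed as higher with HuD. Circles of the spiny neuron markers Arpp21, Foxp1 and Bcl11b and of the astrocyte marker Slc1a2 were among them, which cover 3 of 14 and 1 of 5 markers. The oligodendrocyte, microglial and endothelial markers had no listed circRNA. This does not show that the array lacked probes for them, and the cell types in the tissue could not be checked further. Fewer cells of a type and less of a circRNA per cell cannot be told apart in tissue.

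The long circles spanned 30.1 to 590.0 kb with a median of 48.5 kb, against a median of 7.79 kb for the shorter exonic circles. Spans of 30 to under 60 kb were found for 82 of them, 60 to under 120 kb for 38 and 120 kb or more for 21. They came from 121 host genes. A transcript in the RefSeq gene table (GRCm38.p6) matched 140 of the 141, and all 140 lay inside the matched gene. Host genes had a median length of 249 kb, against 65.2 kb for the shorter circles, and 121 of the long circles (86.4%) against 172 of the shorter (34.3%) came from genes of 100 kb or more. A long circle covered a median of 25.9% of its gene, from 2.38% to 93.9%, while a shorter circle covered a median of 11.2%. Over 50% of the gene lay within the circle for 15 long circles, among them those of Atxn1 (93.9%), Ctnnd2 (68.9%) and Syt1 (62.0%). Across all 644 exonic circles, span and host gene length had a Spearman correlation of 0.55, in which several circles share a gene. Chromosome 1 held 17 of the long circles, more than any other, and chromosomes 2 and 5 held 12 each. The long circles were 33.3% of the exonic circles listed on chromosome 6 and on the X chromosome, but 6.06% of those on chromosome 3 and 9.62% of those on chromosome 11.

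The junction itself is what each array probe reads, as a 60-base sequence that crosses the back-splice. Windows of up to 30 bases are shown here for pairs of long circles that use a site in common, since they show which part of a probe separates one circle from the other. Capitals mark the block of identical bases of the pair at the common site, read 5′ to 3′ on the strand of the circRNA from the deposited annotation. The inner edge of a block can take in a base of the unshared sites that happens to match. In Mboat2, another listed circle with the same acceptor matched without the first capital G. The circles of Anks1b at chr10:90895098-90948672 (plus strand) and chr10:90914695-90948672 (plus strand) share the donor, those of Phactr3 at chr2:178256112-178302838 (plus strand) and chr2:178269316-178302838 (plus strand) share the donor, and those of Mboat2 at chr12:24878190-24934622 (plus strand) and chr12:24878190-24924294 (plus strand) and of Mpp6 at chr6:50143718-50183871 (plus strand) and chr6:50143718-50180659 (plus strand) share the acceptor. Positions are those of the deposited tables, which name no build.
Anks1b, 53.6 kb circle: ACTGCCTTTGATGTGgttttaaaaatcagt
Anks1b, 34.0 kb circle: ACTGCCTTTGATGTGtcgtctgtctgtgaa
Phactr3, 46.7 kb circle: TGAAGCTGTCCAAATgagatggaccaaact
Phactr3, 33.5 kb circle: TGAAGCTGTCCAAATtctgaaaat
Mboat2, 56.4 kb circle: tacgaaattcacgacGGTCAACTTTGTAGT
Mboat2, 46.1 kb circle: ctgctgatttttcagGGTCAACTTTGTAGT
Mpp6, 40.2 kb circle: gaacaacggtgccatTAACACAAGGCACAT
Mpp6, 36.9 kb circle: caaccaggaatgcagTAACACAAGGCACAT

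Within each of these pairs the capital bases are identical, and the lower-case side, which comes from the site that is not shared, sets the circles apart. Of all exonic circles listed, 49 pairs shared a back-splice site, 14 of these pairs held at least 1 long circle and 4 held a pair of long circles. Signal from such a pair cannot be fully assigned where the shared side carries most of the probe, as in Phactr3, whose probes had 44 bases in common.

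Short A/T-rich motifs were searched for on the circRNA strand of the junction probes because ELAV-like proteins bind such sequence. ATTTA, the core pentamer of A/U-rich elements, stood in 11 of the long junctions (7.80%), 19 of the shorter (3.78%) and 30 of all 644 (4.66%). TGTTT stood in 12 (8.51%), 28 (5.57%) and 40 (6.21%), and TTTTT in 3 (2.13%), 17 (3.38%) and 20 (3.11%), respectively. No long junction held more than 1 of these motifs, though TGTTT and TTTTT can overlap. The median share of T was 23.3% in both sets. The windows below show ATTTA in 4 long circles whose values are given further on, with the motif in capitals.
Mapk10, 94.9 kb circle: agtggaggcggtATTTAtgagcctccattt
Rbfox1, 71.7 kb circle: tatggtgcagacATTTAtggatttggtttc
Rims1, 165 kb circle: tgtgggtatgcaATTTAtgtcgaaagcaac
Trim37, 64.4 kb circle: acctttggcagaaATTTAtgaacaacatgt

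A match is not a binding site, and a probe covers only the bases around the junction and not the rest of the ring. The 26 long circles with a motif had median differences of 2.58 over WT RIP and 2.68 over IgG RIP in log2, and those without had 2.75 and 2.84. The annotation of the array also lists predicted miRNA sites for each circle. Among 431 miRNAs predicted on the long circles, miR-1903 was listed for 22 of them (15.6%) and for 38 of the shorter (7.55%). Its mature sequence in RefSeq is printed here with its seed, bases 2 to 8, in capitals.
mmu-miR-1903: cCUUCUUCuucuuccugagaca
The letters complementary to this seed, GAAGAAG, stood in 5 of the long junction probes (3.55%) and 17 of the shorter (3.38%).

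All 141 long circles passed the filter for testing, which asked for a probe well above background on at least 3 of 9 arrays. Their median scaled log2 signal was -0.14, -1.85 and -0.74 in HuD RIP, -2.67, -4.62 and -3.88 in WT RIP, and -3.83, -3.78 and -3.99 in IgG RIP, in replicate order. HuD RIP replicate 1 was the brightest and replicate 2 the dimmest of its group, and WT RIP replicate 1 stood apart from the other WT arrays on the bright side. The medians of the 3 HuD RIP arrays were all above those of the 6 control arrays. For single circles this order held less often, since the signal on WT RIP replicate 1 was above that on HuD RIP replicate 2 for 32 of the 141.

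**Figure D1:**
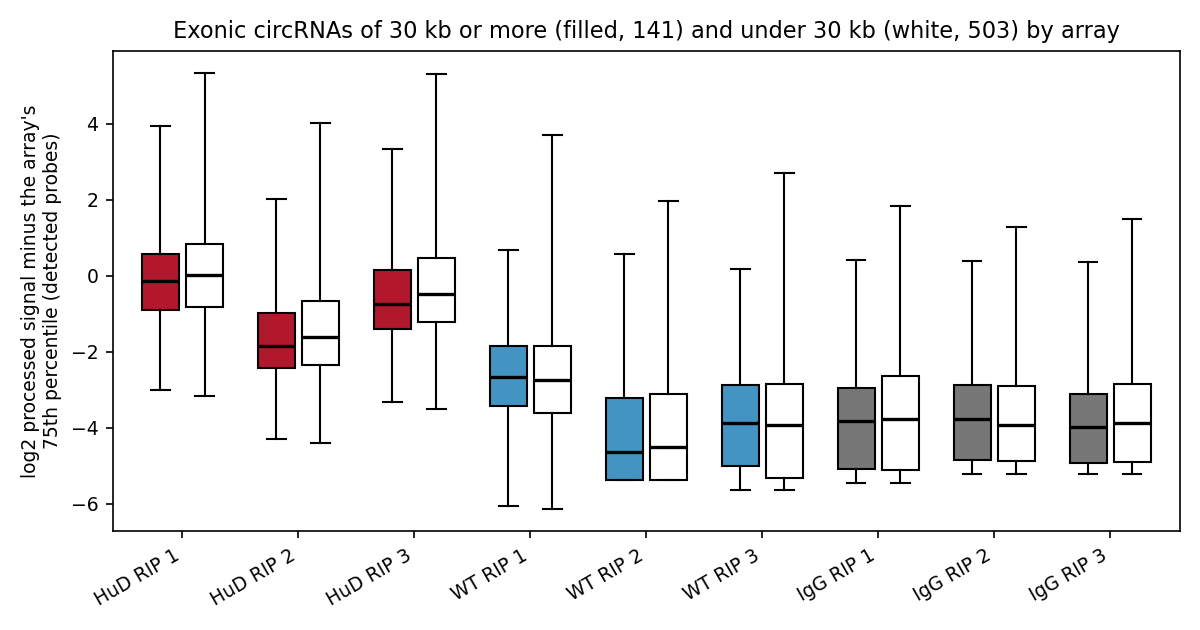
Scaled log2 signal (vertical axis) of the 141 exonic circRNAs of 30 kb or more (filled boxes) and the 503 under 30 kb (white boxes) on each of the 9 arrays (horizontal axis). Boxes span the quartiles, the line is the median and whiskers reach the lowest and highest circle; the HuD RIP medians of -0.14, -1.85 and -0.74 lie above all control medians in the long set.

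In HuD RIP, the long circles were a median of 2.74 above WT RIP in log2, with a range of 0.59 to 6.38, and 2.81 above IgG RIP, with a range of 0.84 to 5.83. With circles that were dim on every array of a control set at their bound, the medians were 2.45 and 1.86, against 0.30 and 0.02 for all tested probes treated the same way. In limma's fit over all tested probes (adjusted p under 0.05), 97 of the 141 were called higher than WT RIP, where 15.0% of all tested probes were called higher, and 124 were called higher than IgG RIP, where 22.0% were. Higher than both controls were 93, beside 13.3% of all tested probes. For 108 of them, each HuD RIP array exceeded each of the 6 controls, beside 19.5% of all tested probes. The same comparisons chose the circles, so nothing is read from these counts. The direction was positive in both comparisons for all 141 under the main scaling, quantile normalization, cyclic loess and no scaling, and for all but 1 circle (of Foxp1, against WT RIP) when arrays were centred on the median or on the percentile of all probes. With normexp background correction, 130 and 107 of the 141 stayed above 0.

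The controls set how far these differences can be read. Every long circle was well above background on at least 2 HuD RIP arrays, and 139 on all 3, the exceptions being circles of Epha7 and Robo2. In contrast, 100 of the 141 (70.9%) were not above background on any of the IgG RIP arrays, 25 (17.7%) not on any of WT RIP and 24 (17.0%) not on any control. These shares were 65.4%, 20.7% and 20.3% of the shorter circles, and 41.8%, 8.75% and 7.98% of all tested probes. The 24 passed the filter for testing only through the 3 HuD RIP arrays. Only 40 could be measured in all 3 groups, and 17 on all 9 arrays. A group counted as measured if 1 or more of its arrays detected the circle. Its other arrays can then lie in the background or at the shared lowest value, as for Atxn1 on WT RIP replicate 2 (-5.37). Log2 differences from such a group take these values as they stand, so they rest in part on background signal. Under the main scaling, the difference for the 25 that were dim in WT RIP is at least 1.54-fold to at least 21.1-fold. For 99 of the 100 dim in IgG RIP it is at least 1.20-fold to at least 16.1-fold. These bounds and those below hold for that scaling alone. Outside the rule for naming circles, and chosen after its values were seen, was that of Map4, a microtubule-associated protein, at chr9:109978849-110036855 (plus strand). The scaled log2 signal of the Map4 circle stood at 1.35, -0.15 and 1.13 in HuD RIP, at -5.80, -5.37 and -5.64 in WT RIP, and at -5.19, -5.02 and -4.96 in IgG RIP. It was at least 21.1-fold above WT RIP and at least 13.3-fold above IgG RIP, with no control array well above background.

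The study's lists against the WT and IgG controls shared 72 of the long circles, which is 84.7% of the 85 listed against WT RIP and 56.3% of the 128 listed against IgG RIP. For the shorter exonic circles the shares were 86.3% of 358 and 68.1% of 454. A further 56 long circles were listed against IgG RIP alone and 13 against WT RIP alone. The 72 on both lists were a median of 3.21 over WT RIP and 3.31 over IgG RIP in log2. Those listed against IgG RIP alone had medians of 2.08 and 2.46, and those listed against WT RIP alone had 2.87 and 2.27.

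**Figure D2:**
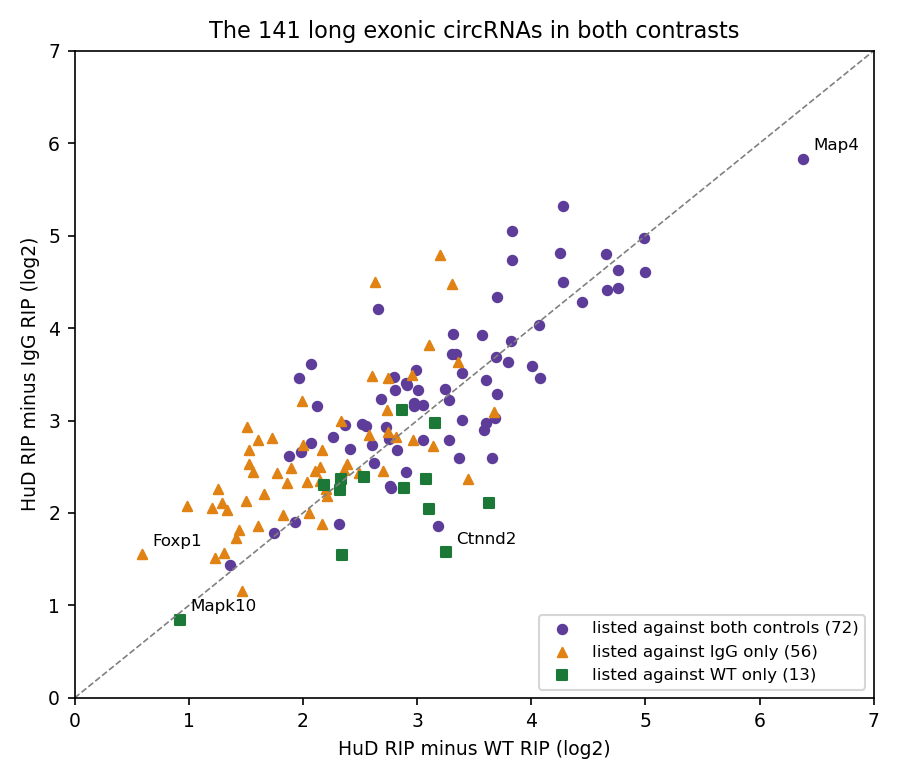
Difference of HuD RIP from WT RIP (horizontal axis, log2) and from IgG RIP (vertical axis, log2) for each of the 141 long circRNAs, with colour and shape giving the list or lists it was taken from and the dashed line marking equal differences. All points lie above 0 on both axes, from the Foxp1 circle at 0.59 and 1.56 and the Mapk10 circle at 0.92 and 0.84 to the Map4 circle at 6.38 and 5.83; differences from a control in which a circle was dim depend on background signal.

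Among the 40 circles measured in all groups, the largest of the smaller of the 2 differences was that of Arpp21, a cAMP-regulated phosphoprotein abundant in striatal neurons, at chr9:112143308-112183584 (minus strand). The scaled log2 signal of the Arpp21 circle stood at 3.93, 2.02 and 3.32 in HuD RIP, at -0.71, -2.51 and -1.49 in WT RIP, and at -1.22, -1.28 and -1.45 in IgG RIP. Its HuD RIP arrays did not overlap the controls, and HuD RIP was 4.66 above WT RIP and 4.41 above IgG RIP in log2 (SE 0.56 for each, n = 3 per group). It came from within Arpp21 and covered 23.5% of the gene.

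The circle of Gnaq, the alpha subunit of a G protein that couples receptors to phospholipase C, was next. Its signal stood at 1.28, 0.24 and 1.33 in HuD RIP, at -2.32, -2.91 and -5.25 in WT RIP, and at -2.95, -3.16 and -3.86 in IgG RIP. HuD RIP was 4.44 above WT RIP and 4.28 above IgG RIP in log2 (SE 0.71 for each, n = 3 per group), and the groups did not overlap. Srcin1 makes a Src-regulating adaptor of dendritic spines, and the signal of its circle stood at 2.47, 0.66 and 2.23 in HuD RIP, at -0.21, -1.55 and -2.83 in WT RIP, and at -1.89, -2.32 and -2.25 in IgG RIP. The HuD RIP arrays lay above all controls, with a difference of 3.32 over WT RIP in log2 and 3.94 over IgG RIP in log2. The circle of Kif5c, a neuronal kinesin heavy chain, was 3.61 above WT RIP and 3.44 above IgG RIP in log2 (SE 0.66 for each, n = 3 per group). That of Adgrl3, a latrophilin adhesion receptor, was 3.67 above WT RIP and 3.09 above IgG RIP in log2 (SE 1.15 for each, n = 3 per group), but its WT RIP arrays ranged from -0.21 to -5.37 and overlapped HuD RIP, where the lowest array was at -0.30. The circle of Pias2, a SUMO ligase, was 3.59 above WT RIP and 2.90 above IgG RIP in log2 (SE 0.70 for each, n = 3 per group).

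Of the same 40 circles, the 4 with the smallest of these differences came from Foxp1, Mapk10, Prkcb and Stau2. The scaled log2 signal of the 48.1 kb Foxp1 circle stood at -0.24, -0.81 and -0.55 in HuD RIP, at -0.65, -1.34 and -1.38 in WT RIP, and at -2.05, -2.27 and -1.95 in IgG RIP. Its HuD RIP arrays overlapped WT RIP replicate 1 and lay above all IgG RIP arrays, and its difference of 0.59 from WT RIP turned to -0.12 with scaling on all probes and to -0.066 with median centring. The 40.6 kb circle of Mapk10, the neuronal JNK kinase JNK3, stood at 1.49, 0.81 and 1.38 in HuD RIP, at 0.14, 0.58 and 0.18 in WT RIP, and at 0.40, 0.39 and 0.35 in IgG RIP. It was higher on every HuD RIP array than on any control array, by 0.92 over WT RIP in log2 and 0.84 over IgG RIP in log2. The 33.2 kb circle of Prkcb, a conventional protein kinase C, was 1.47 over WT RIP in log2 and 1.16 over IgG RIP in log2, with WT RIP arrays that ranged from -1.87 to 0.19. The 46.4 kb circle of Stau2, a double-stranded RNA-binding protein of dendritic transport granules, was 1.20 over WT RIP in log2 and 2.05 over IgG RIP in log2, and its WT RIP and HuD RIP arrays overlapped.

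The 4 longest circles ran from 318 to 590.0 kb. The longest came from Ctnnd2, which encodes delta-catenin of neuronal adherens junctions, at chr15:30332009-30922005 (plus strand). Its signal stood at -0.29, -2.27 and -1.72 in HuD RIP, at -3.05, -5.34 and -5.64 in WT RIP, and at -3.43, -2.99 and -2.57 in IgG RIP. HuD RIP was 3.25 above WT RIP and 1.57 above IgG RIP in log2 (SE 0.74 for each, n = 3 per group); the circle was on the list against WT RIP alone. The Atxn1 circle, at chr13:45566572-45956575 (minus strand), took up 93.9% of the gene for ataxin-1, a nuclear protein with a polyglutamine tract. Its signal stood at -0.10, -1.52 and -0.40 in HuD RIP, at -3.16, -5.37 and -4.20 in WT RIP, and at -5.17, -3.95 and -4.68 in IgG RIP. The HuD RIP and control arrays did not overlap, and HuD RIP was 3.57 above WT RIP in log2 (SE 0.61, n = 3 per group) and at least 4.88-fold above IgG RIP, where no array was well above background.

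The third in length was annotated to the predicted gene Gm20696, at chr6:99308343-99651791 (minus strand), and shared 95 bases at its edge with a Foxp1 circle. Its signal stood at -0.16, -1.40 and -1.10 in HuD RIP, at -1.18, -4.82 and -1.22 in WT RIP, and at -2.88, -2.99 and -4.84 in IgG RIP. WT RIP replicates 1 and 3 were within the range of HuD RIP, and replicate 2 was far below. The circle of Syt1, the calcium sensor of vesicle release, stood at 1.1, -0.81 and 0.92 in HuD RIP, at -0.03, -1.96 and -2.29 in WT RIP, and at -1.42, -1.26 and -2.06 in IgG RIP, and WT RIP replicate 1 overlapped HuD RIP.

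The 17 circles detected on all 9 arrays included 5 named for the brightest signal in HuD RIP, those of Arpp21, Srcin1, Prkcb, Mapk10 and Ccny, although brightness depends on the probe and is not a measure of abundance. The 84.0 kb Prkcb circle stood at 2.70, 0.39 and 1.54 in HuD RIP, at 0.67, -2.28 and -0.21 in WT RIP, and at -0.60, -0.85 and -0.95 in IgG RIP. WT RIP replicate 1 overlapped HuD RIP, and HuD RIP was 2.15 above WT RIP and 2.34 above IgG RIP in log2 (SE 0.78 for each, n = 3 per group). The circle of Ccny, a membrane-tethered cyclin, was 2.34 above WT RIP and 3.00 above IgG RIP in log2 (SE 0.81 for each, n = 3 per group).

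Host genes were grouped by textbook function into 9 lists that covered 121 of the long circles, and each list is given beside all tested probes. The medians of the lists ran from 2.33 to 2.90 over WT RIP in log2, against 0.35 for all tested probes, and from 2.60 to 3.19 over IgG RIP, against 0.52. With dim circles at their bound, the medians over IgG RIP ran from 1.76 to 2.59, against 0.02. Calls in each list are counted in limma's fit, where 15.0% of all tested probes were called over WT RIP and 22.0% over IgG RIP, and nothing is read from them, since the same comparisons chose the circles. The ranges of the lists overlapped throughout, and the lists were chosen with earlier results of these data known.

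**Figure D3:**
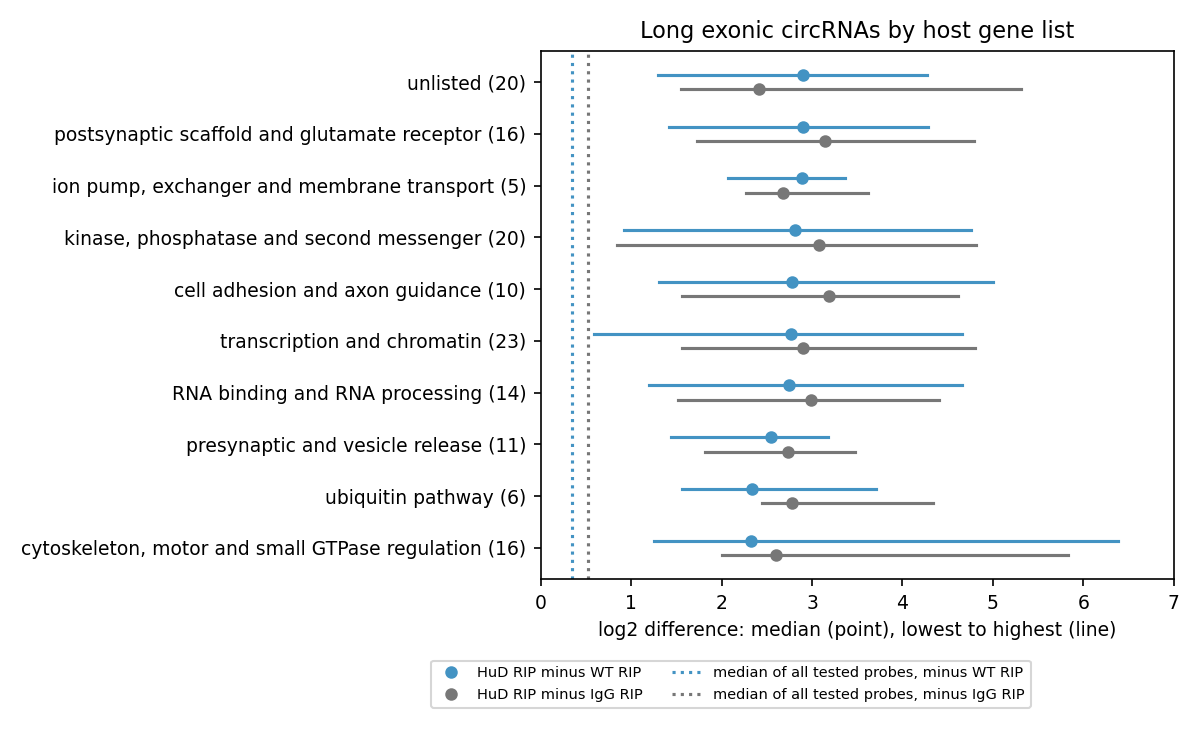
Median (points) and lowest to highest (lines) log2 difference of HuD RIP from WT RIP (blue) and from IgG RIP (grey) for the long circRNAs of each host gene list, with the number of circles in parentheses and the medians of all tested probes, 0.35 and 0.52, as dotted lines. All list medians lie between 2.33 and 3.19 and their ranges overlap; 20 circles whose host genes were on no list form the top row.

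At the postsynaptic side, 16 circles came from scaffold and glutamate receptor genes; 10 were called over WT RIP and 15 over IgG RIP, and their medians were 2.90 and 3.14 in log2. Grm5, the metabotropic glutamate receptor mGluR5, gave a 208 kb and a 99.996 kb circle that lay 171 kb apart within the gene. The former stood at 0.70, -2.03 and -0.40 in HuD RIP, at -1.53, -5.37 and -4.15 in WT RIP, and at -4.64, -4.94 and -3.59 in IgG RIP, and the latter stood at 0.58, -1.70 and -0.47 in HuD RIP, at -1.93, -5.13 and -4.88 in WT RIP, and at -3.09, -2.75 and -2.87 in IgG RIP. Both were dim in IgG RIP, and WT RIP replicate 1 overlapped HuD RIP in the former and not in the latter. Dlgap1 encodes a scaffold of the postsynaptic density, and its 169 kb circle was 3.05 above WT RIP and 2.79 above IgG RIP in log2 (SE 0.81 for each, n = 3 per group).

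Its neighbour on Dlgap1, of 69.6 kb, shared 215 bases with the end of the former and was 1.42 over WT RIP in log2 and 1.72 over IgG RIP in log2. The circles of Anks1b, a postsynaptic ankyrin-repeat protein, that share a donor were at 3.20 over WT RIP in log2 and at least 8.39-fold over IgG RIP for the longer and 2.63 over WT RIP in log2 and at least 11.6-fold over IgG RIP for the shorter. In both, WT RIP replicate 2 was the lowest WT array. The Mpp6 circles, from a membrane-associated guanylate kinase, were dim on all control arrays and were at least 3.39-fold over WT RIP and at least 2.14-fold over IgG RIP for the longer and at least 3.53-fold over WT RIP and at least 2.33-fold over IgG RIP for the shorter.

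At the presynaptic side, 11 circles had the longest median span of the lists, 165 kb; 6 were called over WT RIP and 8 over IgG RIP, with medians of 2.55 and 2.73. Rims1, a scaffold of the active zone, gave a 199 kb and a 165 kb circle that overlapped over 141 kb. The former was 2.58 over WT RIP in log2 and at least 1.94-fold over IgG RIP and the latter 2.15 over WT RIP in log2 and at least 2.44-fold over IgG RIP. Ppfia2 encodes a liprin of the active zone, and its 102 kb and 77.2 kb circles were 2.75 over WT RIP in log2 and at least 2.47-fold over IgG RIP, and 2.80 over WT RIP in log2 and at least 5.04-fold over IgG RIP, respectively. Cacna2d1, an auxiliary subunit of calcium channels, had the largest smaller difference of the list. Its circle was 3.18 above WT RIP and 1.86 above IgG RIP in log2 (SE 0.59 for each, n = 3 per group).

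Kinase, phosphatase and second messenger genes gave 20 circles, of which 14 were called over WT RIP and 17 over IgG RIP, with medians of 2.82 and 3.07. A 121 kb circle of the Src family kinase Fyn was 2.10 over WT RIP in log2 and at least 1.58-fold over IgG RIP. The 30.2 kb circle of Shoc2, a scaffold of the Ras to MAP kinase pathway, was 3.82 over WT RIP in log2 and at least 5.14-fold over IgG RIP.

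Mapk10 had 3 long circles that differed widely in these comparisons. The 94.9 kb circle stood at 2.15, -0.83 and 0.70 in HuD RIP, at -2.36, -5.37 and -4.55 in WT RIP, and at -3.69, -4.13 and -4.06 in IgG RIP, and the 49.1 kb circle nested in it stood at 1.87, -1.18 and 0.23 in HuD RIP, at -2.76, -4.72 and -4.35 in WT RIP, and at -3.94, -4.58 and -4.99 in IgG RIP. HuD RIP was 4.76 over WT RIP in log2 and at least 12.4-fold over IgG RIP for the former and 4.25 over WT RIP in log2 and at least 9.64-fold over IgG RIP for the latter. The 40.6 kb circle, which overlapped the first by 3.16 kb, differed by 0.92 and 0.84 as given above and was the only one of the 3 well above background on every control array. The Prkcb circles lay 58.7 kb apart and were on the list against IgG RIP alone.

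Transcription and chromatin genes gave the most circles, 23, with 17 called over WT RIP, 22 over IgG RIP and medians of 2.77 and 2.90. Foxp1, a transcription factor of spiny projection neurons, had 3 members. The 257 kb circle stood at 1.35, -1.03 and 0.10 in HuD RIP, at -1.89, -4.61 and -3.26 in WT RIP, and at -3.31, -3.65 and -3.15 in IgG RIP. It was 3.40 above WT RIP in log2 (SE 0.75, n = 3 per group) and at least 8.58-fold above IgG RIP, where no array was well above background, and HuD RIP and the controls did not overlap. The 87.2 kb circle nested in it was 3.30 above WT RIP in log2 (SE 0.81, n = 3 per group) and at least 11.2-fold above IgG RIP, where no array was well above background. The 48.1 kb circle began 75 bases inside the end of the longest and ended 95 bases inside the Gm20696 circle, so these 3 circles follow each other along the locus. Sfmbt1, a Polycomb-related protein, gave a 52.3 kb circle with 0.98 over WT RIP in log2 and at least 2.32-fold over IgG RIP and a 36.7 kb circle with 3.34 over WT RIP in log2 and at least 3.12-fold over IgG RIP.

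RNA-binding and RNA-processing genes gave 14 circles, of which 10 were called over WT RIP and 14 over IgG RIP, with medians of 2.75 and 2.99. Msi2, an RNA-binding protein of progenitor cells, had the longest, of 176 kb. Its signal stood at 0.33, -1.70 and -1.21 in HuD RIP, at -5.78, -4.86 and -3.96 in WT RIP, and at -4.51, -4.51 and -4.33 in IgG RIP. No control array was well above background, and HuD RIP was at least 6.79-fold over WT RIP and at least 4.29-fold over IgG RIP. The Rbfox1 circles, from a neuronal splicing regulator, were 2.0 over WT RIP in log2 and at least 1.55-fold over IgG RIP for the 71.7 kb circle and 1.23 over WT RIP in log2 and 1.51 over IgG RIP in log2 for the 36.4 kb circle nested in it. Stau2 also had a 74.4 kb circle, which was 1.75 above WT RIP and 1.78 above IgG RIP in log2 (SE 0.44 for each, n = 3 per group).

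Cnot2, a subunit of the CCR4-NOT deadenylase, had circles of 35.7 kb and 31.9 kb, at at least 2.38-fold over WT RIP and at least 1.5-fold over IgG RIP, and 3.80 over WT RIP in log2 and at least 6.53-fold over IgG RIP, respectively. The circle of R3hdm1, a protein with an R3H RNA-binding domain, was 2.81 over WT RIP in log2 and at least 6.93-fold over IgG RIP.

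Cytoskeleton, motor and small GTPase regulator genes gave 16 circles, with 10 called over WT RIP, 15 over IgG RIP and medians of 2.33 and 2.60. The 58.4 kb circle of Map2, a dendritic microtubule protein, was 2.19 over WT RIP in log2 and at least 2.24-fold over IgG RIP, and the 39.3 kb circle, which overlapped it by 18.6 kb, was 2.20 over WT RIP in log2 and 2.26 over IgG RIP in log2. WT RIP replicate 1 was the highest control array in both and did not overlap HuD RIP. The circle of Tiam1, an exchange factor for Rac, spanned 111 kb and was 2.16 over WT RIP in log2 and at least 1.65-fold over IgG RIP. The Phactr3 circles, from a phosphatase and actin regulator, were 3.66 over WT RIP in log2 and 2.60 over IgG RIP in log2 for the longer and 2.62 over WT RIP in log2 and 2.54 over IgG RIP in log2 for the shorter, and their probes share most of their bases.

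Of 10 circles from adhesion and axon guidance genes, 5 were called over WT RIP and 8 over IgG RIP, with medians of 2.78 and 3.19. Lsamp and Opcml, immunoglobulin-domain adhesion molecules, had the longest, of 256 kb and 138 kb. They were 1.31 over WT RIP in log2 and at least 2.22-fold over IgG RIP, and 2.96 over WT RIP in log2 and at least 2.86-fold over IgG RIP, respectively. The 6 ubiquitin pathway circles had medians of 2.34 and 2.78, with 5 called over WT RIP and 6 over IgG RIP. Among them the ligase genes March1 and Hecw1 had circles at 2.75 over WT RIP in log2 and at least 3.29-fold over IgG RIP, and at least 5.42-fold over WT RIP and at least 3.44-fold over IgG RIP, respectively.

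Trim37, a further ubiquitin ligase, had overlapping circles of 64.4 kb and 47.0 kb. The former was 3.70 over WT RIP in log2 and at least 11.7-fold over IgG RIP and the latter 1.97 over WT RIP in log2 and at least 5.95-fold over IgG RIP. The 5 circles of pump, exchanger and transport genes had medians of 2.89 and 2.68, with 4 called in each comparison. Those of the flippase Atp8a1, the sodium-calcium exchanger Slc8a1 and the proton pump subunit Atp6v1h were 2.89, 2.91 and 2.82 over WT RIP in log2.

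In all, 18 host genes had more than 1 long circle, 38 circles between them. Of the 22 pairs within a gene, 4 shared a back-splice site, 4 were nested, 7 overlapped by at least 3.16 kb, 2 overlapped by 75 or 215 bases, and 5 lay apart. The pair of Mboat2, which encodes a lysophospholipid acyltransferase and was on no list, shared an acceptor. Its 56.4 kb circle stood at 1.68, -1.45 and 0.70 in HuD RIP, at -2.76, -5.27 and -3.86 in WT RIP, and at -5.23, -4.86 and -4.93 in IgG RIP, and its 46.1 kb circle stood at 1.41, -1.01 and 0.77 in HuD RIP, at -3.00, -5.37 and -1.94 in WT RIP, and at -5.42, -4.24 and -4.33 in IgG RIP. No control array reached a HuD RIP array for either circle, and the highest WT RIP array was replicate 1 for the former and replicate 3 for the latter. HuD RIP was 4.28 over WT RIP in log2 and at least 9.66-fold over IgG RIP for the former and 3.83 over WT RIP in log2 and at least 10.2-fold over IgG RIP for the latter.

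**Figure D4:**
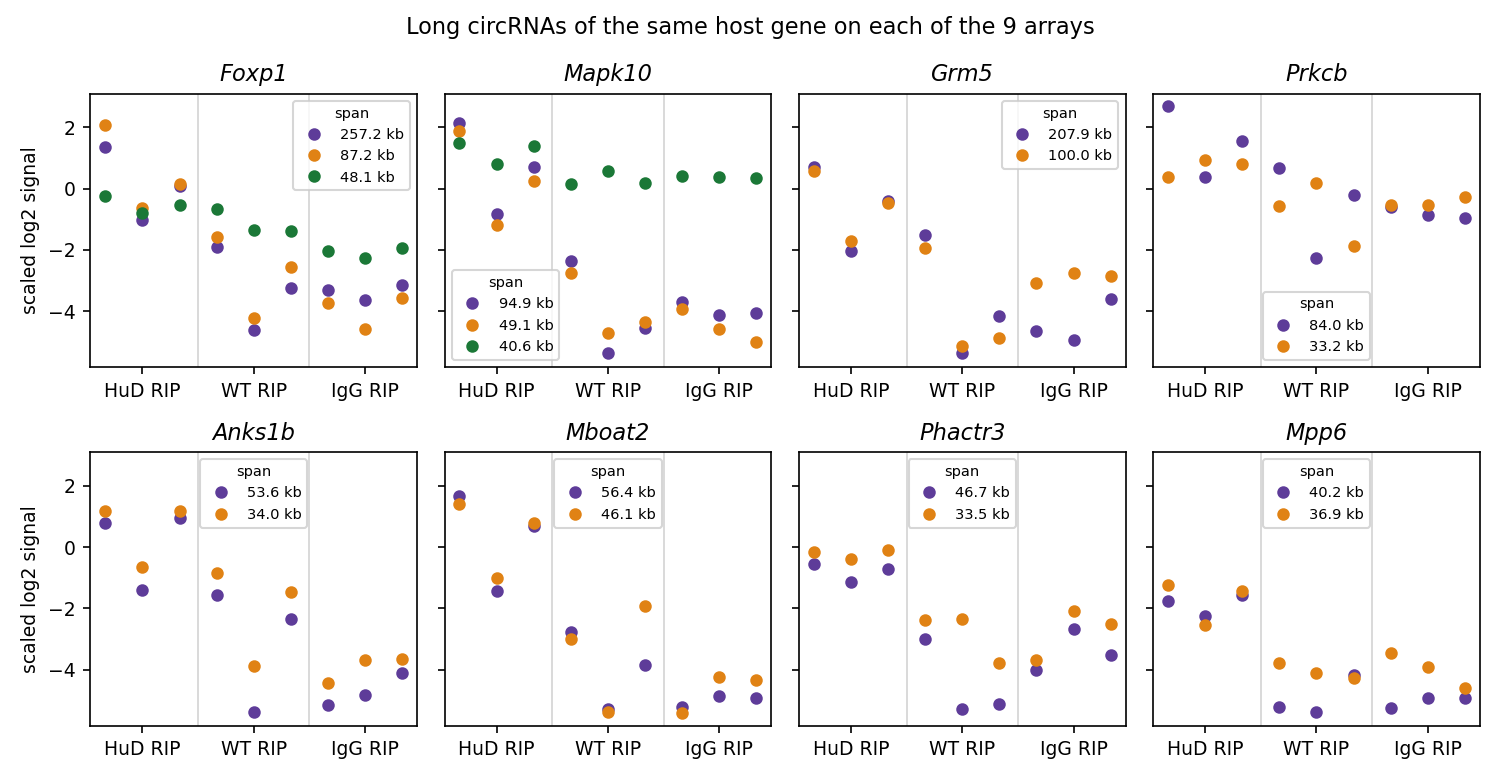
Scaled log2 signal (vertical axis) of long circRNAs of the same host gene on the 9 arrays, 3 points per group in replicate order from left to right, with colours giving the span of each circle. In Mapk10 the 40.6 kb circle differs by 0.92 and 0.84 from the controls, less than the other 2; the levels of different probes are not comparable.

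Between the controls, which the rule did not compare though low control values helped to choose the circles, limma called 0 of the 141 long circles (adjusted p under 0.05 over all tested probes), beside 0.0146% of all tested probes in either direction. The smallest adjusted p in limma among the long circles was 0.564. At an unadjusted p under 0.05, 7 (4.96%) were higher and 2 (1.42%) lower in WT RIP by limma, beside 3.92% and 2.59% of all tested probes. The methods' t-test called 8 of 141 (5.67%) unadjusted, beside 10.2% of all tested probes, and 0 after Benjamini-Hochberg adjustment. Among the 9 at this level in limma were the circles of Anks1b (34.0 kb), Atp2b1, Trim37 (47.0 kb), Reep1, Sfmbt1 (52.3 kb) and Foxp1 (48.1 kb), which were higher in WT RIP, and of Ctnnd2 and Cask, which were lower; those of Atp2b1, Reep1 and Cask are named after their values were seen. The median difference was 0.20 in log2 over the long circles, 0.13 over the shorter and 0.06 over all tested probes.

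Span was also set against the size of the differences. The long circles had slightly lower values than the shorter in both comparisons, with medians of 2.74 against 2.89 over WT RIP and 2.81 against 3.03 over IgG RIP. Per array, the median of the long minus that of the shorter circles was -0.21 ± 0.05 in HuD RIP, 0.01 ± 0.10 in WT RIP and 0.00 ± 0.14 in IgG RIP (SD, n = 3 each). The gap between the groups was therefore -0.22 for HuD RIP against WT RIP and -0.21 for HuD RIP against IgG RIP in log2, and 0.00 between the controls. It shrank to -0.05 and -0.06 when the limit was set at 20 kb, and to -0.12 and -0.11 with normexp correction. None of these gaps between long and shorter circles was tested, since both sets were chosen by the same comparisons.

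**Figure D5:**
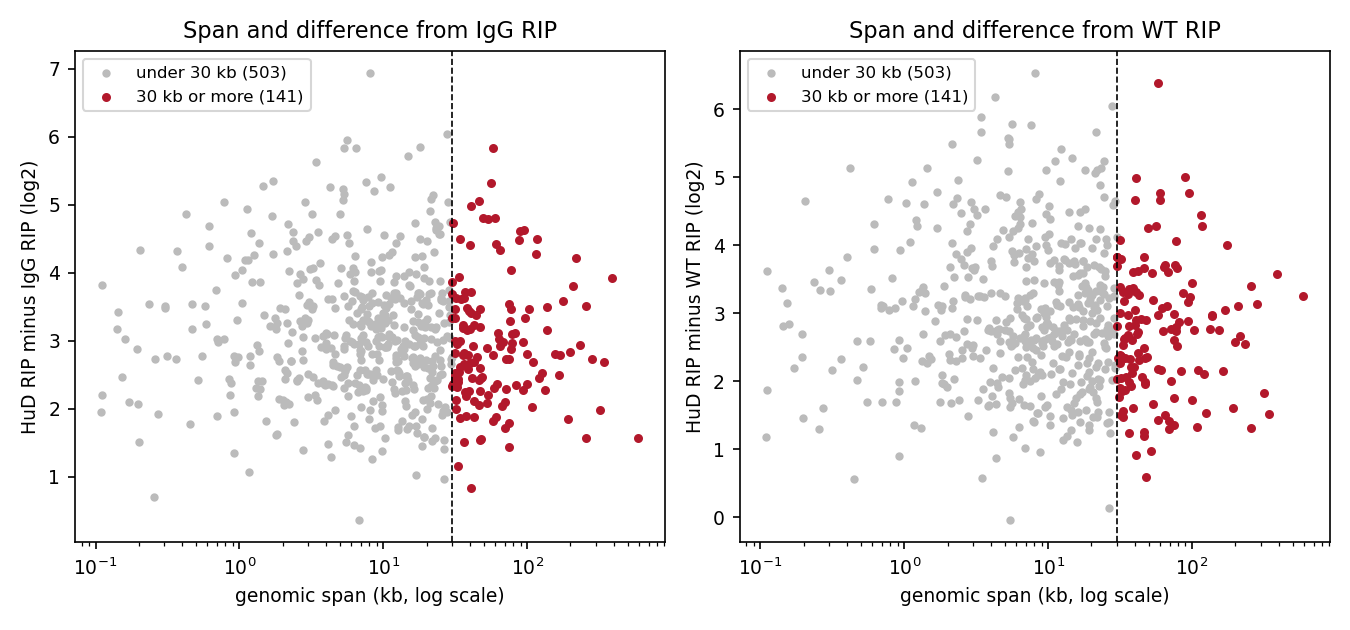
Genomic span (horizontal axis, kb, log scale) and log2 difference of HuD RIP from IgG RIP (left) and from WT RIP (right) for the 644 listed exonic circRNAs, with the dashed line at 30 kb. The clouds of the 503 shorter (grey) and 141 long (red) circles cover the same range, and Spearman correlations over all 644 were -0.07 in both panels.

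Within the long circles the Spearman correlation of span with the difference was 0.07 for WT RIP and 0.02 for IgG RIP over 141 circles that share arrays and in part host genes. The medians over WT RIP were 2.61, 2.88 and 2.75 for spans of 30 to under 60, 60 to under 120 and 120 kb or more, and over IgG RIP 2.79, 2.97 and 2.79. The share of circles on both of the study's lists was 54.9%, 47.4% and 42.9% in these ranges and 58.1% at 10 to under 30 kb. In 41 host genes that gave a long and a shorter listed circle, the long had the larger difference in 24 over WT RIP and in 25 over IgG RIP, with median gaps of 0.10 and 0.28. At the limit itself, circles just inside were those of R3hdm1 (30.2 kb) and Shoc2 (30.2 kb), with the values given above. Just outside, circles of Agap1 and Ehmt1 (29.7 kb each) were 2.25 and 2.22 over WT RIP in log2.

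Position on the slide and calls were set side by side. Row 1 of the slide held all WT RIP arrays and HuD RIP replicate 1, and row 2 held HuD RIP replicates 2 and 3 with IgG RIP replicates 1 and 2. These arrays shared 1 scan date in the file headers, taken here as 1 slide, and IgG RIP replicate 3 had another. Within row 1, where HuD RIP replicate 1 was the only HuD RIP array, the long circles were a median of 3.37 above WT RIP, and all tested probes 0.61. Within row 2 the long circles were a median of 2.52 above IgG RIP, and all tested probes 0.37. The same comparisons chose the circles, so these values are a description and cannot decide what part slide position had. HuD RIP replicate 1 was the highest of its group for 111 of the circles. Without it 45 were called over WT RIP and 72 over IgG RIP, and without HuD RIP replicate 3 the counts were 42 and 64. The share of all tested probes called in these 2 runs was not worked out, so nothing is read from the counts. The part of array brightness in these differences was not tested.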

How the data were processed

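RNA from 9 precipitations was depleted of linear RNA with RNase R and hybridized with Cy3 label to mouse circRNA arrays, 1 per sample. The authors deposited scanner files whose intensity values came, per the file headers, from Feature Extraction 11.0.1.1; the processed intensity is background-subtracted and not normalized between arrays. The authors' deposited tables of circRNAs higher in HuD RIP give annotation, positions and normalized log2 values, with a normalization not given in the sources used here. Their 20 further value columns (raw intensity, group means, fold changes, p and false discovery values) were not used. The submitters' processing notes name limma.

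Outlier spots (269 values) were left out, spots of 1 probe were averaged, and no value was saturated. Where a share of 0.5 or more of a probe's spots carried the mark for well above background, the probe was counted so. Since a median of 31.7% of probes per array were, each array's log2 processed signal was reduced by its 75th percentile over the 2594 probes well above background on all 9 arrays. Of 14330 probes, 6871 that were well above background on at least 3 arrays were tested with limma 3.58.1 in R 4.3.3 (lmFit and eBayes, all 9 arrays, 1 mean per group, 6 residual and 2.72 prior degrees of freedom), with Benjamini-Hochberg adjustment over all of them; the code was tested on simulated data. The 3 groups of 3 limit the precision. Where no array of a group detected a probe above background, an at-least fold is given: the brighter group's mean over the dimmer group's, in which each array counts the probe's signal or, if higher, the weakest signal of any detected probe. Such a fold is a bound under the main scaling only. With scaling on all probes, the long circles' median difference from IgG RIP fell from 2.81 to 2.00 in log2. With normexp, some circles given with a bound turned below 0, as listed further on.

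The members and gene lists were chosen with earlier results of these data known. Circles are named by a rule: the 5 longest, the 6 largest and 4 smallest by the smaller difference among those measured in all groups, the 5 brightest on all 9 arrays, host genes with several circles, per list the 2 longest and the 1 with the largest smaller difference, and the 3 on either side of the span limit; a few circles so chosen are not reported here. In the deposited positions the span exceeds the alias interval by 1 base in 528 of 531 exonic circles, so whether starts count from 0 is not settled. The replicate numbers were not taken to pair the arrays, and whether they do is not settled. Alternatives were other scalings, normexp (offset 50), other filters, left-out arrays, span limits, the groups compared alone and the methods' t-test. Blocks were also fitted for replicate number, for scan date, and for scan date together with row of the slide.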

Additional observations from a re-analysis of the deposited data

How the results depend on the processing

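The 97 long circles called over WT RIP became 15 with normexp, 50 when only the groups compared were fitted, 0 by the methods' t-test after adjustment (88 at its unadjusted threshold and over 1.5-fold) and 3 among the 17 circles detected on all 9 arrays, the last chosen after seeing the data. The 124 called over IgG RIP became 48, 136, 40 (136 unadjusted) and 16, respectively. They became 75 with the scan date as a block, which drops IgG RIP replicate 3, and 23 with scan date and row of the slide together as a block. At span limits of 20 kb and 60 kb the counts were 160 and 38 over WT RIP and 195 and 48 over IgG RIP. Leaving out each array gave 42 to 127 over WT RIP and 64 to 136 over IgG RIP; over WT RIP the counts were 45 without HuD RIP replicate 1, 42 without HuD RIP replicate 3, 52 without WT RIP replicate 2 and 51 without WT RIP replicate 3, and over IgG RIP they were 72 without HuD RIP replicate 1, 64 without HuD RIP replicate 3, and 77, 77 and 75 without IgG RIP replicates 1, 2 and 3. The count between the controls was 0 in every alternative run. The share of all tested probes called over a control was not worked out for any alternative run, so nothing is read from these counts about the long circles. The cause of these shifts was not tested.

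Long minus shorter in log2, -0.22 for HuD RIP against WT RIP and -0.21 against IgG RIP, ran from -0.27 to -0.19 and from -0.27 to -0.13 without each array. It was -0.12 and -0.11 with normexp, -0.054 and -0.063 at 20 kb, -0.081 against WT RIP at 60 kb, and -0.50 against WT RIP among circles detected on all 9 arrays. Between the controls it was 0.00, with -0.14 at 60 kb, 0.39 among those detected on all 9 arrays and -0.05 to 0.08 without each array. With the authors' normalized log2 values it was -0.20 and -0.18.

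Same-numbered arrays did not deviate together in all pairs, with correlations of deviations from -0.10 to 0.65. Between HuD RIP and WT RIP the correlations were 0.65, 0.56 and -0.10 for replicates 1, 2 and 3. In pairs with IgG RIP they ran from -0.03 to 0.10. The numbers were not taken as a pairing, but whether HuD RIP and WT RIP arrays were paired by assay is not settled. With the replicate block 123 long circles were called over WT RIP, 133 over IgG RIP and 0 between the controls. The share of all tested probes called over a control with this block was not worked out, so nothing is read from these counts.

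Of 2816 differences of the 64 named circles under 22 alternatives, 2450 moved by less than the spread between replicates and 351 by more. Most of the 2450 were bound to stay within that spread. Other filters, the groups compared alone, the t-test and the replicate block leave a difference as it is. Leaving out an array cannot shift it by as much as the spread. The 351 came only from other scalings, normexp (104) and the block of scan date and row (12). These counts therefore do not measure how stable the differences are. The remaining 15 differences turned below 0. These were the 48.1 kb Foxp1 circle against WT RIP with scaling on all probes (-0.12) and median centring (-0.066), and, with normexp, against WT RIP Rbfox1 (71.7 kb, -0.019) and Sfmbt1 (52.3 kb, -0.028), and against IgG RIP Rbfox1 (-0.19), Rims1 (199 kb, -0.19), Ppfia2 (102 kb, -0.051), Map2 (58.4 kb, -0.14), Sfmbt1 (-0.14), Mpp6 (-0.15 and -0.17), Cnot2 (35.7 kb, -0.26), Lsamp (-0.092), Tiam1 (-0.13) and Fyn (-0.14). Circles dim in a control are limited by signal over background.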
